A study of Mus musculus with 8 samples.

Results

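The Mir10, Mir99, Mir100 and Mir125 genes are 8 mouse miRNA genes that encode small RNAs of 3 families. Small RNAs were sequenced from male mouse primordial germ cells (mPGCs) of 3 fetal stages (E12.5, E13.5, E15.5), and from mPGC-like cells (mPGCLCs) obtained after 6 days of differentiation in culture, with 2 libraries in each of the 4 groups. Reads of 20 to 24 nt were assigned to a miRNA gene when the whole sequence lay exactly, on the sense strand, in its GENCODE M21 transcript. A read shared by several loci was counted once. The 8 genes were Mir10a, Mir10b, Mir99a, Mir99b, Mir100, Mir125a, Mir125b-1 and Mir125b-2, of 2201 miRNA gene symbols. Reads were summed over the 5p and 3p arm of each hairpin: 12 arms of the 8 genes had reads, of 742 miRNA arms with reads, and 11 of them were among the 454 arms with enough reads to test. The arm left out of the tests was Mir10a-3p, with 15 reads in 1 library.

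The mPGCs came from male genital ridges of embryos carrying the GOF18 germline reporter, with 2 embryos pooled per library and a different litter for each library. The labels give the strain as C57BL/6J and name the surface antigens SSEA1 and CD61 for the sort, whereas the methods of the study name an FVB/C57BL/6J mixed background and a sort on EGFP. The mPGCLCs came from 1 male embryonic stem cell line, SGET (B6CBA/129), which carries Stella-GFP and Esg1-tdTomato, and cells positive for the first and negative for the second were sorted on day 6. By transcriptional profile the study likens day 6 mPGCLCs to migratory mPGCs, a stage before those sampled here. Developmental stage, strain, reporter, gate and growth in culture all separate the mPGCLCs from the mPGCs and cannot be told apart in that comparison. The p-values measure the spread between 2 libraries per group, which the main edgeR fit estimated from all 4 groups together.

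A miRNA is cut from a hairpin precursor by Drosha and Dicer, and 1 strand is loaded into an Argonaute protein, which it guides to mRNAs mainly through its seed, the bases from position 2 to position 8. The Mir10 genes lie inside the Hox clusters, next to genes that set position along the body axis. Mir99, Mir100 and Mir125 genes occur together in clusters with a let-7 gene, and miR-125 is the vertebrate relative of the worm timing regulator lin-4, with the pluripotency factor Lin28 among its known targets. mTOR is a known target of miR-99 and miR-100.

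The mature sequences are shown because the 5p arms fall into 3 seed groups and some pairs of arms differ by few bases. They are from RefSeq (GRCm38.p6), all 8 genes matched, and the capitals mark the seed.
mmu-miR-10a-5p: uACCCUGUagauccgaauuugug
mmu-miR-10b-5p: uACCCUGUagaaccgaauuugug
mmu-miR-99a-5p: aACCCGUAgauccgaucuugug
mmu-miR-99b-5p: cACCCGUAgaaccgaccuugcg
mmu-miR-100-5p: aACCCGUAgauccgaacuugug
mmu-miR-125a-5p: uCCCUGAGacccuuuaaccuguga
mmu-miR-125b-5p: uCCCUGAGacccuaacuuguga
The 2 miR-10 sequences differ by 1 base, U12A from miR-10a to miR-10b, counted from the 5′ end. miR-100 and miR-99a also differ by 1 base, A16U from miR-100 to miR-99a. The edit distance, the smallest number of substitutions, insertions and deletions that turns one sequence into another, was 3 between miR-100 and miR-10a although their seeds differ, and 3 between miR-125a and miR-125b, which share a seed. No other mature mouse miRNA in RefSeq had the seed of the miR-10 pair or of the miR-99 and miR-100 group, whereas miR-351-5p, miR-6367 and miR-6394 had the seed of miR-125. The mature miR-125b-5p is identical from Mir125b-1 and Mir125b-2, so its reads stand for both genes.

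The 3p arms shown are those of the cluster that gave most reads, and the capitals again mark the seed.
mmu-miR-99b-3p: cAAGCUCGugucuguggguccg
mmu-miR-125a-3p: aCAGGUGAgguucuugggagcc

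All 8 hairpins lie on the plus strand (GRCm38). Mir99b (chr17:17830188-17830257) and Mir125a (chr17:17830812-17830879) are 554 bases apart, with Mirlet7e between them. Mir99b is intronic in Spaca6, a gene needed for sperm and egg to fuse. Mir125a also lies in Spaca6, and 1 annotated Spaca6 exon covers 47 of its 68 bases. Mir99a (chr16:77598936-77599000) and Mir125b-2 (chr16:77646273-77646343) are 47272 bases apart in introns of Mir99ahg, with Mirlet7c-1 between them, and the exon of C130023A14Rik overlaps Mir125b-2. Mir100 (chr9:41531425-41531504) and Mir125b-1 (chr9:41581926-41582002) are 50421 bases apart in introns of the long RNAs 3110039I08Rik and Gm49317, with Mirlet7a-2 between them. An exon of Gm48742 lies opposite Mir100 and an exon of Gm28119 covers Mir125b-1 on the same strand. Mir10a (chr11:96317165-96317274) is intergenic between Hoxb5 and Hoxb4, 992 bases from the latter. Mir10b (chr2:74726070-74726137) lies in introns of Hoxd3 and Hoxd4. No read of 18 nt or more matched the antisense strand of any of the 8 hairpins in any library.

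Each library held 7447873 to 26552524 mapping reads. Reads matching a miRNA were 12.8% to 24.8% of them in all libraries but those of E15.5, where they were 2.22% and 1.89%, so levels are given both as counts per 1000000 mapping reads (CPM) and as a percentage of miRNA-matching reads. Per mapping reads the median arm fell by 3.52 on the log2 scale from E13.5 to E15.5, and per miRNA-matching reads it fell by 0.31. Hairpins of the miR-290 and miR-302 groups, which mark pluripotent and germ cells, gave 13.1% to 37.2% of miRNA-matching reads in every library. Mir292 alone gave 8.18% to 24.6%. None of the 11 genes was at 0 in both libraries of any group, but some of the miR-302 group had few reads. Mir302c had at most 16 reads in an mPGC library, and Mir367 had at most 67 in any library. The 7 genes of a list of gonadal and mesenchymal soma gave 0.205% to 0.291% of miRNA-matching reads at E12.5, then 0.294% to 0.596% at E13.5, then 0.654% to 1.47% at E15.5, and 0.543% to 0.668% in mPGCLCs, in which Mir202 was at 0. Blood genes gave at most 0.103% of miRNA-matching reads, the endothelial gene Mir126a at most 0.0434%, and neural genes 0.0217% to 0.649%. Among the blood genes, Mir451a had 1 read in the 8 libraries. The others reached more in single mPGC libraries: 71 reads for Mir144, 113 for Mir223, 383 for Mir142 and 498 for Mir486. In bulk libraries, fewer cells of a type and less RNA per cell cannot be told apart.

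Together the 8 genes gave 3.57% and 3.90% of miRNA-matching reads in the E12.5 libraries, then 4.56% and 6.33% at E13.5 and 6.08% and 7.60% at E15.5, against 1.90% and 1.89% in mPGCLCs. The lowest mPGC library was thus above both mPGCLC libraries on this scale. Per mapping reads they gave 4579 and 8040 CPM at E12.5, and then 6650 and 13452 at E13.5 and 1348 and 1436 at E15.5, against 3035 and 4705 in mPGCLCs. On that scale E15.5 was the lowest group, so the place of E15.5 in the order depended on the denominator. An exact permutation test of 2 libraries against 2 (two-sided) cannot give a p below 0.333, so none of the family sums could pass a threshold.

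**Figure D1:**
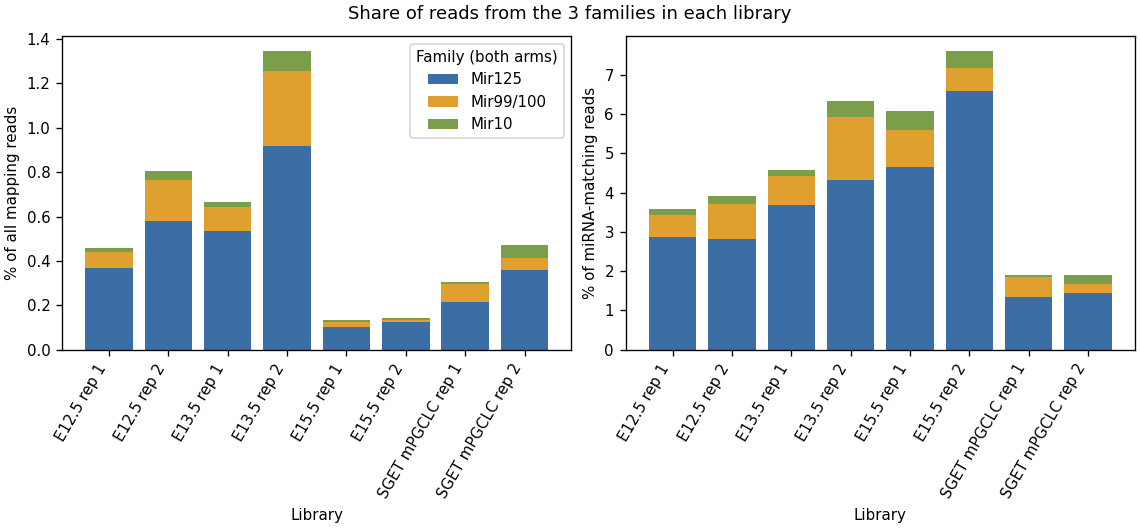
Stacked bars give the reads of the Mir125, Mir99/100 and Mir10 families (both arms) in each of the 8 libraries, as a percentage of all mapping reads (left) and of miRNA-matching reads (right). The E15.5 libraries are the lowest on the left (0.135% and 0.144% in all), and on the right replicate 2 of E15.5 is the highest (7.60%) and both mPGCLC libraries the lowest (1.90% and 1.89%).

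The Mir125 family held most of these reads. It made up 2.87% and 2.82% of miRNA-matching reads at E12.5, and then 3.67% and 4.33% at E13.5 and 4.66% and 6.59% at E15.5, against 1.34% and 1.45% in mPGCLCs. The 4 groups did not overlap on this scale, which was not set against how often other arms separate. The Mir99/100 family gave 0.568% and 0.883% at E12.5, and then 0.748% and 1.58% at E13.5 and 0.942% and 0.572% at E15.5, against 0.508% and 0.222% in mPGCLCs, so the 3 mPGC groups overlapped. The Mir10 family gave 0.132% and 0.202% at E12.5, and then 0.140% and 0.416% at E13.5 and 0.478% and 0.436% at E15.5, against 0.0519% and 0.223% in mPGCLCs. Both E15.5 libraries were above all 6 others for Mir10, by a small margin (0.436% against 0.416%), and E12.5, E13.5 and mPGCLCs overlapped. How often other arms place E15.5 apart in this way was not examined either. The counting error of these shares was small beside the spread between libraries: for Mir10 in replicate 1 of E12.5, with 1257 reads, the 95% Wilson interval was 0.125% to 0.139%. Sequence copies made by PCR are not separate molecules, so intervals and floors cover counting error only.

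Mir125a and Mir99b, the cluster in Spaca6, accounted for 90.5% to 96.6% of the reads of the 8 genes in the mPGC libraries. In mPGCLCs the share was 92.6% and 76.9%. The clusters on chromosomes 16 and 9 and the Hox-linked genes shared the rest. Ligation and PCR efficiency differ between sequences, so an order of levels between arms is an order of reads, not of molecules.

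Mir125a-5p was the most abundant arm of the 8 genes in every library and ranked between 3 and 17 among all miRNA arms. Its level was 3512 and 5633 CPM at E12.5, and then 5227 and 8822 at E13.5 and 1010 and 1234 at E15.5, against 2019 and 3068 in mPGCLCs. As a percentage of miRNA-matching reads it stood at 2.74% and 2.73% at E12.5, and then 3.59% and 4.15% at E13.5 and 4.56% and 6.53% at E15.5, against 1.26% and 1.24% in mPGCLCs. On the second scale no group overlapped another, with E15.5 highest and mPGCLCs lowest. The share of all arms that separated in this way is not given here, so the separation is not shown to be particular to Mir125a-5p. Its paralog miR-125b-5p was far lower, at 131 and 131 CPM at E12.5, and then 0.913 and 215 at E13.5 and 16.6 and 11.5 at E15.5, against 121 and 488 in mPGCLCs. The 2 libraries of E13.5 differed most, with 11 reads in replicate 1 and 4237 in replicate 2. Mir125a-5p exceeded miR-125b-5p by 26.8 to 5723 times in the mPGC libraries and by 16.7 and 6.28 times in mPGCLCs. Both mPGCLC ratios lay below all 6 mPGC ratios, and the exact permutation test against E12.5 gave p = 0.333, the smallest value the design allows.

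Mir99b-5p was next, with 610 and 1637 CPM at E12.5, and then 989 and 3145 at E13.5 and 192 and 57.8 at E15.5, against 791 and 518 in mPGCLCs. It lay above Mir10b-5p in 7 of 8 libraries, the exception being replicate 2 of E15.5. Mir99a-5p, which shares its seed, reached at most 73.4 CPM and had 0 reads in replicate 2 of the mPGCLCs, a count that allows up to 3 reads or 3.15e-05% of the library. Mir100-5p was the lowest 5p arm in 6 libraries, with at most 13.1 CPM. It had 0 reads, like Mir99a-5p, in replicate 2 of the mPGCLCs, and in replicate 1 of E13.5 only miR-125b-5p was lower. Mir99b-5p exceeded the sum of Mir99a-5p and Mir100-5p by 16.3 to 54.0 times in the 7 libraries where that sum was above 0.

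Mir10b-5p gave 157 and 332 CPM at E12.5, and then 170 and 786 at E13.5 and 83.5 and 77.4 at E15.5, against 63.4 and 326 in mPGCLCs. Mir10a-5p gave 11.8 and 82.9 at E12.5, and then 34.0 and 91.3 at E13.5 and 21.3 and 4.07 at E15.5, against 19.7 and 227 in mPGCLCs. The Hoxd-linked gene exceeded the Hoxb-linked one in all 8 libraries, by 3.92 to 19.0 times in mPGCs and by 3.22 and 1.44 times in mPGCLCs. The lowest mPGC ratio was above both mPGCLC ratios, again with an exact permutation p of 0.333 against E12.5. Neighbours in the order below Mir99b-5p, namely Mir10b-5p, miR-125b-5p and Mir10a-5p, did not keep 1 order in every library.

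**Figure D2:**
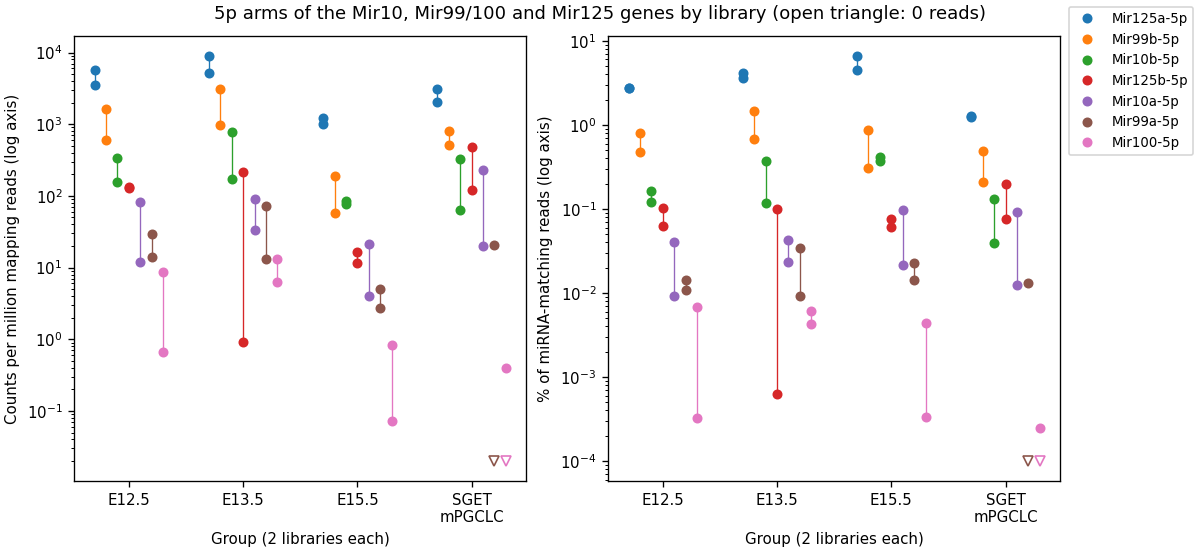
Points give each library's reads of the 7 distinct 5p arms, in CPM (left) and as a percentage of miRNA-matching reads (right), on log axes; a line joins the 2 libraries of a group and open triangles at the bottom mark 0 reads. Mir125a-5p is the top point of every group (1010 to 8822 CPM), and the mPGCLC library with 0 reads of Mir99a-5p also had 0 of Mir100-5p.

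From E12.5 to E13.5 no member arm passed the test. The quasi-likelihood test of edgeR, with p-values adjusted by Benjamini-Hochberg over the 454 arms, called 0 of the 11 member arms in either direction, 0 of them at an unadjusted p under 0.05, and DESeq2 called 0 as well. The background in this comparison was 0% of arms called higher and 0% called lower, with 4 arms at an unadjusted p under 0.05, and DESeq2 called 7 arms higher and 1 lower. The fitted difference for Mir125a-5p was 0.62 ± 0.53 (SE) on the log2 scale per mapping reads and that for Mir99b-5p 0.88 ± 0.79. Each difference was close to its own SE. The median over the 11 arms was 0.97, and over all 454 arms 0.08. Per miRNA-matching reads edgeR again called 0 members (0 at an unadjusted p under 0.05), where the background was 0.839% of 477 arms higher and 0% lower. With 2 libraries a group and this spread, an arm that did not pass here or in the comparisons that follow is not shown to be unchanged.

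From E13.5 to E15.5 Mir125a-5p and Mir99b-5p fell per mapping reads. Mir125a-5p fell by 2.65 on the log2 scale (SE 0.57, edgeR adjusted p = 0.0030) and Mir99b-5p fell by 4.05 (SE 0.89, edgeR adjusted p = 0.0036). They were 2 of 11 member arms called lower, where the background was 16.7% of all arms called lower, and 0% called higher. The median over the 11 arms was -2.94 against -3.52 over all arms. Mir125a-3p, at -5.51 ± 2.32 (SE), did not pass (edgeR adjusted p = 0.14) but was called lower when only these 2 groups were fitted (edgeR adjusted p = 0.018). Relative to the median of all arms, Mir125a-5p stood 0.87 above and Mir99b-5p stood at -0.53. Per miRNA-matching reads 0 member arms were called by edgeR (0 at an unadjusted p under 0.05; 0.419% of 477 arms called higher and 0% lower), with Mir125a-5p at 0.52 ± 0.30 (SE) and Mir99b-5p at -0.88 ± 0.56. With DESeq2, which scales by the miRNA arms themselves, the count was 0 too.

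Between E12.5 and E15.5 the direction for Mir125a-5p turned with the denominator. Per mapping reads it fell by 2.03 on the log2 scale (SE 0.55, edgeR adjusted p = 0.016), and Mir99b-5p fell by 3.17 (SE 0.85, edgeR adjusted p = 0.015), which made 2 of 11 members called lower against a background of 15.4% of arms lower and 0.22% higher. Per miRNA-matching reads Mir125a-5p rose by 1.02 (SE 0.30, edgeR adjusted p = 0.024), 1 of 11 members called higher against a background of 3.56% higher and 2.31% lower. Relative to the median of all arms, Mir125a-5p was 1.31 higher on the first scale and 1.30 higher on the second. Scaled by trimmed mean of M-values (TMM) it was 1.75 higher (edgeR adjusted p = 0.064) and with DESeq2 1.51 higher (DESeq2 adjusted p = 0.13), so neither passed. The rise per miRNA-matching reads lost its call without either E12.5 library (edgeR adjusted p = 0.44 and 0.31), without replicate 1 of E13.5 (0.062) or without replicate 2 of E15.5 (0.22). The soma list also took a larger share of miRNA-matching reads at E15.5 than at E12.5 (0.654% to 1.47% against 0.205% to 0.291%), and its part in this difference was not tested.

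For Mir99b-5p the same comparison gave -0.12 ± 0.55 (SE) per miRNA-matching reads (edgeR adjusted p = 0.98), with no call. Mir10b-5p was at -1.61 ± 1.08 per mapping reads and 1.47 ± 0.86 per miRNA-matching reads (edgeR adjusted p = 0.33 and 0.49). Neither Mir10 value passed the test, although both E15.5 libraries lay above the other mPGC libraries as a percentage of miRNA-matching reads. The fall of Mir125a-5p per mapping reads was lost without replicate 2 of E12.5 (edgeR adjusted p = 0.12) or replicate 1 of E15.5 (0.078), and that of Mir99b-5p without replicate 2 of E12.5 (0.12) or replicate 2 of E15.5 (0.057).

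The mPGCLCs were compared with E12.5, the earliest mPGC stage sampled. Mir125a-3p was the member arm called on both scales, with 295 and 569 reads in the E12.5 libraries and 0 reads in both mPGCLC libraries. Pooled by group, its reads were at least 269.9-fold lower in mPGCLCs, taking a floor of 3 reads over the group. That bound covers counting error only, not the spread between libraries. The arm was called lower on both scales (edgeR adjusted p = 0.031 per mapping reads and 0.0060 per miRNA-matching reads). That was 1 of 11 members called lower per mapping reads, where the background was 3.52% of arms lower and 1.98% higher. The call was lost when either mPGCLC library was left out (edgeR adjusted p = 0.11 and 0.068 per mapping reads, 0.069 and 0.073 per miRNA-matching reads) and when only these 2 groups were fitted (0.080 per mapping reads). The 5p arm of the same hairpin was at -0.85 ± 0.54 (SE) per mapping reads (edgeR adjusted p = 0.35) and fell by 1.13 per miRNA-matching reads (SE 0.30, edgeR adjusted p = 0.0034). On the second scale 2 of 11 members were called lower, against a background of 8.18% lower and 2.94% higher, and the fall of Mir125a-5p kept an adjusted p of at most 0.0497 when each library was left out in turn. The medians per mapping reads were -0.85 over the members and -0.19 over all arms, and per miRNA-matching reads -0.96 and -0.39. Beside E12.5 the mPGCLC libraries also had a larger summed share of soma genes (0.543% to 0.668% against 0.205% to 0.291% of miRNA-matching reads). The soma genes did not move together: Mir143 gave 0.197% and 0.263% against 0.104% and 0.0416%, whereas Mir202 had 0 reads against 1110 and 2370. Of the soma arms edgeR called 0 higher on either scale, with 1 of 9 lower per mapping reads and 2 of 8 lower per miRNA-matching reads. The share of neural genes was smaller (0.0217% to 0.0636% against 0.389% to 0.649%). The part of either list in the differences of the member arms was not tested.

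No other member arm passed in that comparison with all libraries in the fit. Mir99b-3p (edgeR adjusted p = 0.35 per mapping reads) was called lower when replicate 2 of the mPGCLCs was left out (edgeR adjusted p = 0.039), which leaves 1 read of it in that group. Mir99b-5p was at -0.78 ± 0.79 (SE), miR-125b-5p at 1.22 ± 1.52, Mir10a-5p at 1.38 ± 1.76 and Mir10b-5p at -0.33 ± 1.06 on the log2 scale per mapping reads. Each SE is larger than the difference beside it. Mir125b-1-3p had 429 reads, all of 1 sequence, in replicate 2 of the mPGCLCs, 0 in replicate 1, and 2 over both E12.5 libraries, a ratio of 229 with a counting interval of 63.0 to 1896. It rests on that 1 library and did not pass (edgeR adjusted p = 0.35).

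**Figure D3:**
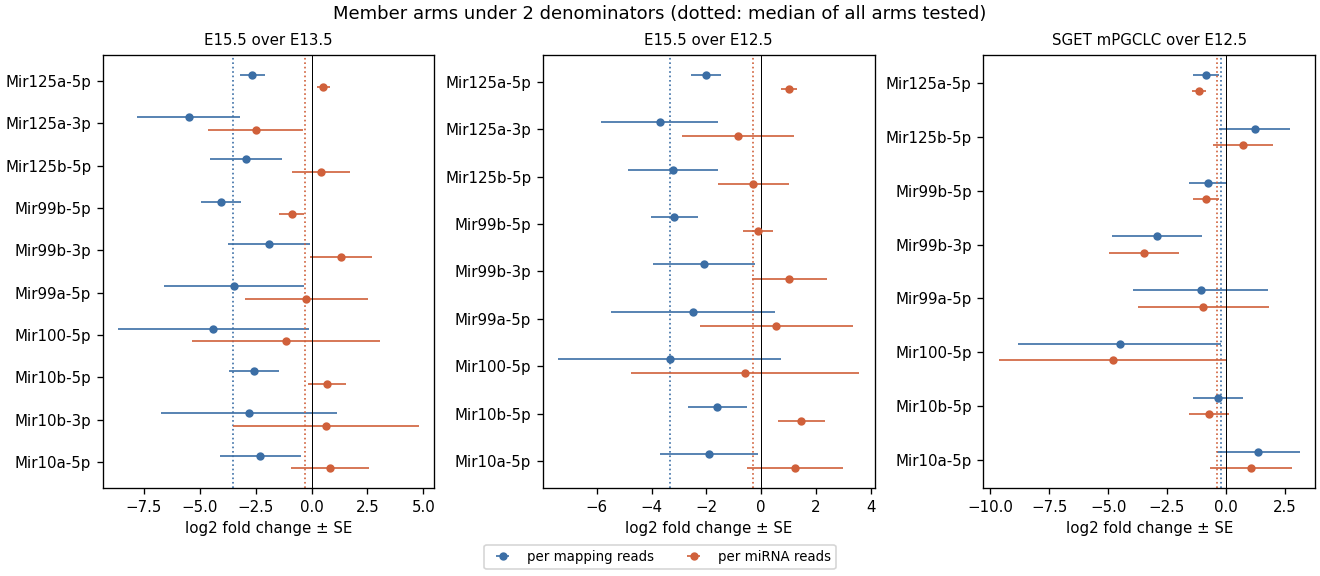
Points give the fitted log2 fold change of each member arm with its SE, per mapping reads (blue) and per miRNA-matching reads (orange), for E15.5 over E13.5, E15.5 over E12.5 and mPGCLC over E12.5; dotted lines mark the median of all arms tested, and arms with 3 or fewer reads in a group are not drawn. Mir125a-5p lies at -2.03 and 1.02 for E15.5 over E12.5 and at -0.85 and -1.13 for mPGCLC over E12.5.

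The 3p arms gave fewer reads than the 5p arms of the same hairpins in most libraries. Mir125a-3p made up 1.12% and 0.736% of the reads of both arms at E12.5, then 2.38% and 1.73% at E13.5, later 0.579% and 0.0275% at E15.5, and 0% in both mPGCLC libraries, where the upper Wilson bounds were 0.0186% and 0.0131%. The E13.5 libraries were the highest and the 4 groups did not overlap, which again was not set against other arms. Mir99b-3p made up 13.53% and 8.44% at E12.5, and then 7.60% and 4.16% at E13.5 and 5.74% and 44.7% at E15.5, against 0.0124% and 5.87% in mPGCLCs. Replicate 2 of E15.5 stood apart, and 98.3% of its Mir99b-3p reads were a single sequence of 20 nt, shorter than the mature form by the bases in capitals.
Mir99b-3p, 22 nt: caagctcgtgtctgtgggtcCG
Mir99b-3p, 20 nt: caagctcgtgtctgtgggtc
The 20 nt sequence had 1220 reads there, 149 in replicate 2 of E13.5, 20 in replicate 1 of E15.5 and 0 in the other 5 libraries. The 22 nt sequence had 12 reads in replicate 2 of E15.5. In mPGCLCs Mir99b-3p had 1 read in replicate 1, and in replicate 2 it had 308 reads of 1 sequence. Mir10b-3p had reads in 3 libraries, at most 133, and no reads of the 3p arms of Mir99a, Mir100 or Mir125b-2 were found.

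**Figure D4:**
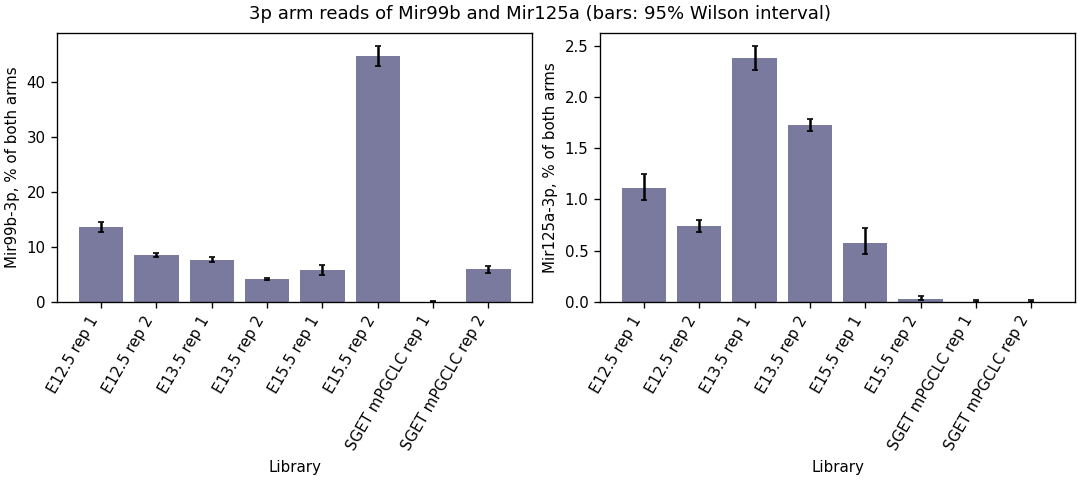
Bars give the 3p arm of Mir99b (left) and Mir125a (right) as a percentage of the reads of both arms in each library, with 95% Wilson intervals for counting error. Replicate 2 of E15.5 stands out for Mir99b (44.7%), and both mPGCLC libraries are at 0 for Mir125a.

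Reads of Mir125a-5p were mostly the full 24 nt in mPGCs, while a shorter 22 nt form took a larger share in mPGCLCs. The 2 forms are shown in the letters of the reads, and the capitals mark the 2 bases that the shorter form lacks.
Mir125a-5p, 24 nt: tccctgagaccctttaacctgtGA
Mir125a-5p, 22 nt: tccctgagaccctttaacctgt
Reads of 24 nt made up 77.1% and 77.8% of the arm at E12.5, and then 82.4% and 80.7% at E13.5 and 75.1% and 87.3% at E15.5, against 43.1% and 57.8% in mPGCLCs. Reads of 22 nt made up 7.72% and 8.04% at E12.5, and then 4.33% and 7.75% at E13.5 and 13.9% and 7.43% at E15.5, against 41.6% and 17.5% in mPGCLCs. Both mPGCLC libraries lay outside the range of the 6 mPGC libraries for both forms, though they also differed from each other by more than the mPGC libraries did. The exact permutation test against E12.5 gave p = 0.333 for each form, the smallest value possible. Over the 83 arms with at least 100 reads in every library, the mean read length in mPGCLCs minus that at E12.5 had a median of -0.06 nt, and 58 arms were shorter in mPGCLCs. Mir125a-5p, at -0.51 nt, was the sixth most shortened of them, and Mir10b-5p and Mir99b-5p, each at -0.21 nt, ranked 19 and 20.

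**Figure D5:**
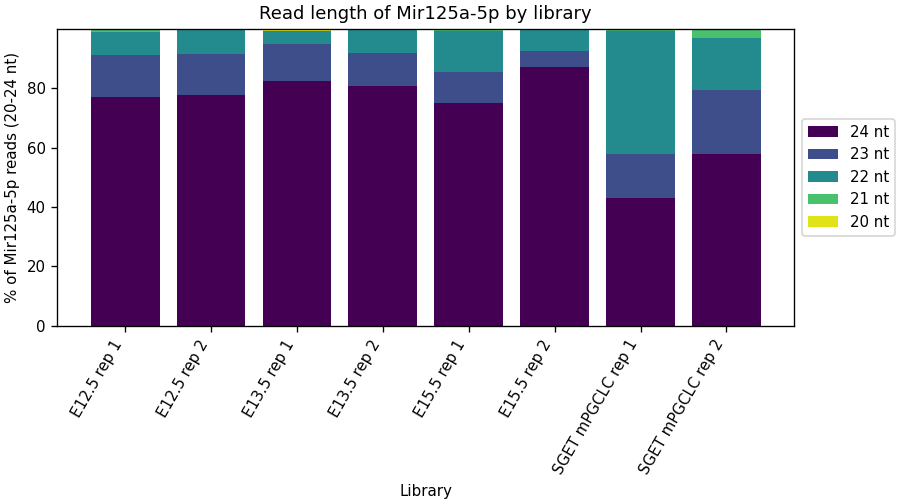
Stacked bars give the share of Mir125a-5p reads at each length from 20 to 24 nt in each library. The 24 nt form takes 75.1% to 87.3% in the 6 mPGC libraries and 43.1% and 57.8% in the mPGCLC libraries.

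Mir99b-5p also had shorter reads in mPGCLCs than in the E12.5 and E13.5 libraries. The most abundant Mir99b-5p sequence, the annotated 22 nt form, made up 79.4% and 89.8% of the arm in the E12.5 libraries, 79.6% and 92.3% in those of E13.5, 59.3% and 92.8% in those of E15.5, and 70.7% and 57.1% in mPGCLCs. Both mPGCLC libraries lay below the 4 libraries of E12.5 and E13.5, and they overlapped those of E15.5. Reads of 22 nt were 84.6% ± 7.32 (SD, n = 2) of the arm at E12.5 and 63.9% ± 9.58 in mPGCLCs, and those of 21 nt were 14.97% ± 6.73 and 35.7% ± 10.1, each with an exact permutation p of 0.333, the smallest possible, as for Mir125a-5p. The most abundant miR-125b-5p sequence was its annotated form too, at 69.1% to 100% of the arm. For Mir10a-5p and Mir10b-5p the most abundant sequence over the 8 libraries was 1 base shorter than the annotated form. It made up 18.3% to 100% of Mir10a-5p reads and 35.0% to 94.5% of Mir10b-5p reads.

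The 5′ end, which sets the seed, was precise in the 5p arms of the Spaca6 cluster. At least 97.0% of Mir125a-5p reads and 98.0% of Mir99b-5p reads started at the annotated first base in every library. This was not particular to them: the share was 93.1% to 100% for Mir99a-5p and 100% for Mir100-5p where they had reads. The 3p arms of the cluster went down to 89.6% for Mir125a-3p (replicate 1 of E13.5) and 94.3% for Mir99b-3p (replicate 2 of E13.5). Mir10b-5p was less uniform: the share starting there was 94.2% and 82.5% at E12.5, and then 100% and 83.5% at E13.5 and 84.0% and 53.1% at E15.5, against 100% and 66.7% in mPGCLCs. Reads starting 1 base further in made up 46.6% of Mir10b-5p reads in replicate 2 of E15.5 and 0% in replicate 1 of E13.5 and of the mPGCLCs. All 4 groups overlapped. These levels rest on few sequences: 15 distinct sequences of 20 to 24 nt made up all Mir10b-5p reads, 13 those of Mir125a-5p, 6 those of Mir99b-5p and 2 those of Mir100-5p.

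Let-7 genes sit between the members in each cluster and are regulators of developmental timing whose precursors Lin28 binds. Mirlet7e, between Mir99b and Mir125a, gave 1269 and 1333 CPM at E12.5, and then 2319 and 2488 at E13.5 and 261 and 203 at E15.5, against 547 and 1311 in mPGCLCs. Its 5p arm fell by 3.37 on the log2 scale from E13.5 to E15.5 (SE 0.70, edgeR adjusted p = 0.0026), beside falls of 2.65 for Mir125a-5p and 4.05 for Mir99b-5p. Of the 3 cluster let-7 arms tested, 2 were called lower from E13.5 to E15.5 per mapping reads and 0 higher, where the background was 16.7% of all arms lower, and the let-7 median was -2.53 against -3.52 over all arms. Per miRNA-matching reads edgeR called 0 of them. The reads of Mirlet7a-2 and Mirlet7c-1 are shared with Mirlet7a-1 and Mirlet7c-2 and cannot be assigned to the clusters. Within the Spaca6 cluster the ratio of Mir125a-5p to Mir99b-5p ran from 2.81 to 5.76 in 5 mPGC libraries, reached 21.4 in replicate 2 of E15.5, and was 2.55 and 5.92 in mPGCLCs.

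Taken singly, the other Hox-linked miRNA genes all gave fewer reads than Mir10b in 7 of 8 libraries. The exception was Mir196a in replicate 1 of the mPGCLCs. Summed, they gave 218 and 409 CPM in mPGCLCs, above the 63.4 and 326 of Mir10b. Mir196a (counted once for its 2 loci) gave 174 and 288 CPM in mPGCLCs, and at most 17.2 in any mPGC library. Both mPGCLC libraries were thus above every mPGC library, while the mPGC groups overlapped. This separation was not set against how often other arms separate. The difference of the mPGCLCs from E12.5, 5.38 ± 2.31 (SE) on the log2 scale, did not pass (edgeR adjusted p = 0.23). Mir196b reached at most 80.9 and Mir615 at most 44.3 CPM. All 4 genes were at 0 in replicate 1 of E13.5, where Mir10b-5p had 2053 reads. Of the 3 Hox-linked arms tested, edgeR called 0 in any comparison on either scale.

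The arms most like each family across the 8 libraries, by Pearson's r of log2(CPM + 1) among the 443 other arms tested, are given as a description, since all points share the depth and miRNA content of their libraries. Closest to the Mir125 family were Mir30e-5p (r = 0.98), Mir148a-3p (0.97) and the shared 3p arm of Mir103-1, Mir103-2 and Mir107 (0.97). Closest to the Mir99/100 family were the shared 5p arm of Mir7-1 and Mir7-2 (0.98), Mir30e-5p (0.96) and the shared 5p arm of Mir30c-1 and Mir30c-2 (0.96). Closest to the Mir10 family were Mir1843b-3p (0.89), the shared let-7c 5p arm (0.89) and Mir3082-3p (0.88), of which Mir1843b-3p and Mir3082-3p were at 0 in 5 libraries.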

How the data were processed

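Small RNA was sequenced from 8 libraries in 4 groups of 2. The authors trimmed reads with cutadapt (3.2), removed the random adapter ends, mapped them to GRCm38 with STAR (2.5.3a), assigned multi-mapping reads once at random, and deposited collapsed tables of sequence and count. The deposited counts are raw reads per distinct sequence. PCR copies were not collapsed by the random ends. Runs came from 2 instrument models, and which library ran on which is not given in the sources used here.

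Sequences of 20 to 24 nt lying exactly in a GENCODE M21 miRNA transcript on the sense strand were summed per gene and arm. Reads were put on the arm of the RefSeq mature miRNA that covered at least 50% of their length, and arms of loci sharing a sequence were joined. Arms passing filterByExpr were tested with edgeR 4.0.16 (glmQLFit, glmQLFTest, all 4 groups in 1 fit, library size the file's total) in R 4.3.3, with Benjamini-Hochberg adjustment over all 454 arms and a threshold of 0.05. SE is the absolute log2 fold change over the square root of F. Per miRNA-matching reads the same fit used those reads as library size (477 arms). The alternatives were TMM, DESeq2 1.42.0, no filter, reads of 18 to 26 nt, reads at the mature start, the 2 groups alone, a replicate block and each library left out. Two-sided exact permutation tests and Wilson intervals (95%) used scipy 1.17.1. On simulated data with arms changed by 4 on the log2 scale, the edgeR fit recovered 99.5% of them at a dispersion of 0.2. At the common dispersion of these libraries (2.22) it recovered 0%. DESeq2 recovered 32.1% there and called 4.72% of unchanged arms, and it called 2.65% where no arm was changed. All simulated arms of a run had the same dispersion, whereas the fit to the real libraries lets the spread differ between arms. These rates therefore need not hold for a given arm.

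The members and gene lists were chosen with earlier results of these data known. All member arms with reads were named, with the cluster let-7 genes, the other Hox-linked miRNA genes, the 3 non-member arms most like each family, and from the 3 most abundant sequences of each member arm those a result turned on. The labels do not tie same-numbered libraries of different groups to 1 litter or culture. Other libraries of the study were not analysed here.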

Additional observations from a re-analysis of the deposited data

How the results depend on the processing

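With 2 libraries per group, libraries from 1 embryonic stem cell line and a fall of miRNA reads at E15.5, the choice of denominator and single libraries moved most values, and the arms with few reads were set by few sequences. The cause was not tested for any of these changes. The alternatives that left out libraries from the fits per miRNA-matching reads were chosen after seeing the data.

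With library size set to miRNA-matching reads, the log2 fold change from E13.5 to E15.5 turned positive for Mir10a-5p (0.83), Mir10b-3p (0.65), Mir10b-5p (0.69), Mir125a-5p (0.52), miR-125b-5p (0.42) and Mir99b-3p (1.32). From E12.5 to E15.5 it turned positive for Mir10a-5p (1.25), Mir10b-5p (1.47), Mir125a-5p (1.02), Mir125b-1-3p (1.30), Mir99a-5p (0.56) and Mir99b-3p (1.02). With TMM the values from E13.5 to E15.5 were 0.73 for Mir10a-5p, 1.20 for Mir10b-3p, 0.92 for Mir10b-5p, 0.87 for Mir125a-5p, 0.51 for miR-125b-5p and 1.87 for Mir99b-3p. From E12.5 to E15.5 TMM gave 0.63 for Mir100-5p, 1.43 for Mir10a-5p, 2.11 for Mir10b-5p, 1.75 for Mir125a-5p, 2.02 for Mir125b-1-3p, 0.37 for miR-125b-5p, 1.06 for Mir99a-5p, 1.95 for Mir99b-3p and 0.23 for Mir99b-5p, and from E12.5 to E13.5 it gave 0.078 for Mir99b-3p. DESeq2 gave, from E13.5 to E15.5, 1.15 for Mir10a-5p, 1.16 for Mir10b-5p, 0.99 for Mir125a-5p, 0.89 for miR-125b-5p, 0.20 for Mir99a-5p and 1.88 for Mir99b-3p. From E12.5 to E15.5 DESeq2 gave 1.62 for Mir10a-5p, 1.95 for Mir10b-5p, 1.51 for Mir125a-5p, 2.03 for Mir125b-1-3p, 0.14 for miR-125b-5p, 0.98 for Mir99a-5p, 1.60 for Mir99b-3p and 0.26 for Mir99b-5p. As shares of miRNA-matching reads in place of mapping reads, the E15.5 over E13.5 fold became 1.64 for Mir10, 1.41 for Mir125 and 1.26 for the 8 genes, the E15.5 over E12.5 fold 2.74 for Mir10, 1.04 for Mir99/100, 1.98 for Mir125 and 1.83 for the 8 genes, and the mPGCLC over E12.5 fold 0.823 for Mir10.

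Of the members, 2 were called lower from E13.5 to E15.5 and from E12.5 to E15.5 per mapping reads, and 0 were with miRNA-matching reads, TMM or DESeq2. From E13.5 to E15.5 the 2 groups fitted alone gave 3, with Mir125a-3p added. With miRNA-matching reads 1 was called higher from E12.5 to E15.5. In mPGCLCs 1 was called lower per mapping reads, 2 with miRNA-matching reads, and 0 per mapping reads with the 2 groups alone. Over all arms, calls from E12.5 to E13.5 were 0 higher and 0 lower. They were 4 higher with miRNA-matching reads, 3 higher with TMM and 7 higher and 1 lower with DESeq2. From E13.5 to E15.5, 0 higher and 76 lower became 2 and 0 with miRNA-matching reads, 1 and 0 with TMM, and 10 and 2 with DESeq2. From E12.5 to E15.5, 1 higher and 70 lower became 17 and 11, then 4 and 0, and then 36 and 7 in the same order, 0 higher without the filter on low counts, and 111 lower with the 2 groups alone. In mPGCLCs over E12.5, 9 higher and 16 lower became 14 and 39 with miRNA-matching reads, 34 and 62 with DESeq2, 25 lower with TMM and 6 lower with the 2 groups alone.

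Replicate numbers were shared by the groups and were not taken as pairing. Deviations of same-numbered libraries correlated by 0.04 to 0.13 across 454 arms, a measure that does not register a shift common to all arms. The share of miRNA-matching reads was higher in replicate 2 than in replicate 1 at E12.5 (20.6% against 12.8%), at E13.5 (21.3% against 14.6%) and in mPGCLCs (24.8% against 16.0%). At E15.5 it was lower (1.89% against 2.22%). An effect of the replicate number on these shares was not tested. With the replicate block, 2 arms were called higher from E12.5 to E13.5, 18 higher and 26 lower in mPGCLCs over E12.5, and the Mir10 fold of mPGCLCs over E12.5 became 0.809.

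With each library left out in turn, arms called from E12.5 to E13.5 ran from 0 to 3 higher and 0 to 2 lower, from E13.5 to E15.5 from 0 to 2 higher, from E12.5 to E15.5 from 0 to 1 higher and 34 to 81 lower, and in mPGCLCs over E12.5 from 5 to 22 higher and 14 to 29 lower. Members called lower ran from 0 to 2 from E12.5 to E15.5 and from 0 to 1 in mPGCLCs, where the arm called without replicate 2 of the mPGCLCs was Mir99b-3p in place of Mir125a-3p. Log2 fold changes from E12.5 to E13.5 ran from -0.48 to 2.41 for Mir10a-5p, -3.71 to 8.58 for Mir10b-3p, -0.52 to 1.68 for Mir10b-5p, -7.15 to 0.72 for miR-125b-5p, -0.72 to 1.75 for Mir99a-5p, -0.60 to 0.19 for Mir99b-3p and -0.18 to 1.76 for Mir99b-5p. From E13.5 to E15.5 they ran from -8.38 to 5.68 for Mir10b-3p and -3.93 to 3.93 for miR-125b-5p, and from E12.5 to E15.5 from -3.54 to 0.10 for Mir10a-5p, -3.60 to 5.77 for Mir10b-3p and -3.11 to 1.74 for Mir125b-1-3p. In mPGCLCs over E12.5 they ran from -1.27 to 3.38 for Mir10a-5p, -1.95 to 0.41 for Mir10b-5p, -3.33 to 11.32 for Mir125b-1-3p, -0.12 to 1.90 for miR-125b-5p and -1.32 to 0.10 for Mir99b-5p. The fold of the Mir10 share ran from 0.700 to 3.23 from E12.5 to E13.5 and 0.284 to 1.89 in mPGCLCs over E12.5, and that of Mir99/100 from 0.856 to 3.06 from E12.5 to E13.5. The falls of Mir125a-5p (-2.97 to -2.22) and Mir99b-5p (-5.16 to -2.99) from E13.5 to E15.5 kept their calls.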
